A study of Mus musculus with 8 samples.

Results

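The genes described here encode 10 transcription factors that specify and maintain heart muscle: *Gata4*, *Gata6*, *Nkx2-5*, *Tbx5*, *Tbx20*, *Tbx3*, *Mef2a*, *Mef2c*, *Hand2* and *Isl1*. They were chosen by name, and each was read from the assembled locus on its own strand whose span shared at least 0.5 of the joint span with the gene (a Jaccard index of 0.5 or more), or else from its RefSeq accession entries. By that rule 9 of the 10 genes had a value among the 65265 entries of the short-read table. The samples were HL1 cells, an immortal line of mouse atrial cardiomyocytes, grown in Claycomb medium with norepinephrine and given no other treatment, so every value refers to 1 cell line and 1 culture condition. Nuclei were extracted with urea and detergent, and the supernatant (nucleoplasm) and the pellet (chromatin) were sequenced as 50 bp stranded short reads from 3 independent cultures, giving 3 chromatin and 3 nucleoplasm libraries, each made from 100 ng of RNA. Chromatin RNA of the same line was also sequenced as long nanopore cDNA reads in 2 libraries. The question of the comparison is which RNA stays with chromatin.

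GATA4, GATA6, NKX2-5, TBX5, TBX20, MEF2 proteins and HAND2 form the core network that switches on contractile and electrical genes in heart muscle, binding DNA side by side and regulating one another. TBX3 belongs to the T-box family as TBX5 does, but represses working-muscle genes in the conduction system. ISL1 marks progenitors of the outflow tract, right ventricle and atria and is turned off in most differentiated muscle. Messenger RNA of such genes is made on chromatin, spliced there in large part, and then released into the nucleoplasm on its way to the cytoplasm.

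RefSeq start regions (GRCm38.p6, the same assembly as mm10) were held for 6 of the 10 genes. The windows of *Hand2* and *Nkx2-5* are shown because an RNA from the other strand began close to or over these genes, and that of *Mef2a* because it carries a match to the site that its own protein family binds. Each runs from 250 bases before to 50 bases after the annotated start, 5′ to 3′ on the strand of the gene, and capitals mark matches to the motifs named below.
Hand2, chr8:57320733-57321032, plus strand: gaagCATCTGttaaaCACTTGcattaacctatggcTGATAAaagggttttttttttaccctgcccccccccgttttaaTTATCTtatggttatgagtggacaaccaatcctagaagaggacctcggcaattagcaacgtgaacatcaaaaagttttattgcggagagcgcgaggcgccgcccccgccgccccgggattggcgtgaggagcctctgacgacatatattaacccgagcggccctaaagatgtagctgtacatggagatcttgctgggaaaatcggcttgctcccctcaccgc
Nkx2-5, chr17:26841516-26841815, minus strand: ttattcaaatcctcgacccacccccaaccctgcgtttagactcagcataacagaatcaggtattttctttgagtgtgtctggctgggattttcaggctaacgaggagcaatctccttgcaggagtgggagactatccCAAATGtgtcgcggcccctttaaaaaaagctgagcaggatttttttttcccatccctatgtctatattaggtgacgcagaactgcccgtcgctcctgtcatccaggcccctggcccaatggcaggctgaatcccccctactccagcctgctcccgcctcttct
Mef2a, chr7:67372809-67373108, minus strand: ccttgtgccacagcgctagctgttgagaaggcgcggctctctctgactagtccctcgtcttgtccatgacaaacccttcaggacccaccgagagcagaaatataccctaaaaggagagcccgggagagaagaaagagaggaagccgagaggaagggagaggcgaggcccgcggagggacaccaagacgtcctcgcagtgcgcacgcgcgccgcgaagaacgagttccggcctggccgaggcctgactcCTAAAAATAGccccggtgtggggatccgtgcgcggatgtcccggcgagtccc

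Both strands were searched for GATA sites (the letters AGATAA, plus AGATAG, plus TGATAA, plus TGATAG), the NKX2-5 site TNAAGTG, the T-box site AGGTGTNA, the E-box CANNTG that HAND2 and other basic helix-loop-helix proteins bind, the MEF2 site and the TATA box TATAAA. Of all 32851 start windows of the same length, 29.8% held a GATA site, 11.5% an NKX2-5 site, 3.03% a T-box site, 72.3% an E-box, 3.19% a MEF2 site and 13.6% a TATA box. The *Hand2* window held 2 GATA sites and 2 E-boxes, and the *Nkx2-5* window held 1 E-box. The *Mef2a* window held 1 MEF2 site, CTAAAAATAG, which spans the annotated start. The RefSeq start of *Nkx2-5* lies inside the GENCODE span of the gene, which begins with a longer transcript. No NKX2-5 or T-box site lay in any member's window. A match is only a run of letters, and the expression values below say nothing about its use.

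The gene counts of the 6 short-read libraries summed to 91657034 to 121773350. One GEO field gives chromatin as the fraction of all 6, so fractions were assigned by the sample titles. *Malat1*, a nuclear RNA held at chromatin, was 3.82 higher on the log2 scale in the libraries titled chromatin, and *Pvt1* 3.93 higher. *Gapdh* was 2.07 lower and *B2m* 2.67 lower there, so the titles separated the fractions. Of the 7 genes listed as atrial markers, 5 had values. *Actc1*, *Myl7* and *Myl4* lay between 3184 and 43889 normalized counts in every library, whereas *Nppa* lay between 10.4 and 112.7 and *Sln* between 18.7 and 376. Of the 5 ventricular markers 4 had values. *Irx4* was at 0 in all libraries, *Myl2* did not exceed 9.42 nor *Myl3* 16.2, and *Hey2* lay between 18.3 and 69.6, within the range of *Nppa*. The 6 fibroblast markers summed to 120670 to 174007 in chromatin and 253853 to 461194 in nucleoplasm, nearly all of it *Col1a1* and *Col3a1*, and the 3 smooth muscle markers with values, mostly *Acta2*, summed to 50479 to 79372 and 146734 to 202666. Of the 4 endothelial markers *Cdh5* was at 0, and the sums were 1049 to 1828 and 1755 to 2934.

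Replicate 3 stood apart from replicates 1 and 2 in both fractions. Its atrial marker sum was 0.462 of the mean of the other chromatin libraries and 0.496 of that of the nucleoplasm libraries. In chromatin most of that sum was *Actc1*. The fibroblast marker sum of replicate 3 was 1.36 and 1.80 times the others. The same ratios were 0.649 and 0.731 for smooth muscle markers, 0.593 and 0.614 for endothelial markers, 0.423 and 0.770 for pacemaker markers, and 2.35 and 1.83 for the few counts of ventricular markers. The pacemaker list did not move as a set. Its chromatin sum was mostly *Cacna1d* in replicates 1 and 2 (33427 and 33135), which was at 7351 in replicate 3, and *Hcn4* was also low there. In chromatin *Tbx18* was highest in replicate 3 (2220, 2035 and 7481) and *Shox2* changed little (316, 329 and 328). Across 15736 genes with a mean of at least 100 normalized counts the ratio of replicate 3 to the others had a median of 0.938 in chromatin and 1.01 in nucleoplasm. Results that rest on replicate 3 are therefore given with and without it, and the part that cell composition has in them was not tested. In such bulk samples fewer cells of a type and less RNA per cell cannot be told apart.

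RNA of most core regulators was more abundant in chromatin than in nucleoplasm, and the compact genes of the set were not. *Gata4*, *Gata6*, *Tbx5*, *Mef2a* and *Mef2c* were higher in chromatin, *Hand2* was lower, and *Nkx2-5*, *Tbx3* and *Isl1* did not pass the test (limma on log2 of the normalized count plus 1, Benjamini-Hochberg adjusted p under 0.05 over 35818 genes). Thus 5 of 9 genes were called higher, where 26.9% of all genes tested were, and 1 was called lower, where 20.9% were. Only *Tbx5* exceeded the 4-fold limit that defines chromatin-enriched RNA in this system, against 15.7% of all genes. The median log2 fold change was 0.79 over the 9 genes and 0.38 over all genes tested. With a Jaccard index of 0.8 or more, which leaves out *Gata4* and *Tbx5*, 3 of 7 genes were higher and the median turned to -0.56. That value rests on *Isl1* with its count of 3 in 1 library. Among the 8 genes with a mean of at least 10 normalized counts, which leaves out *Isl1*, it was 1.12, and over all genes with such a mean it was 0.049. All chromatin libraries lay above all nucleoplasm libraries for 5 genes, as for 31.5% of all genes, and below them for 2 genes, as for 23.8%. The sign of each gene of the set was the same under all alternatives tried for it. For *Isl1* this carries no information, since its only value above 0 was in nucleoplasm replicate 3.

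**Figure D1:**
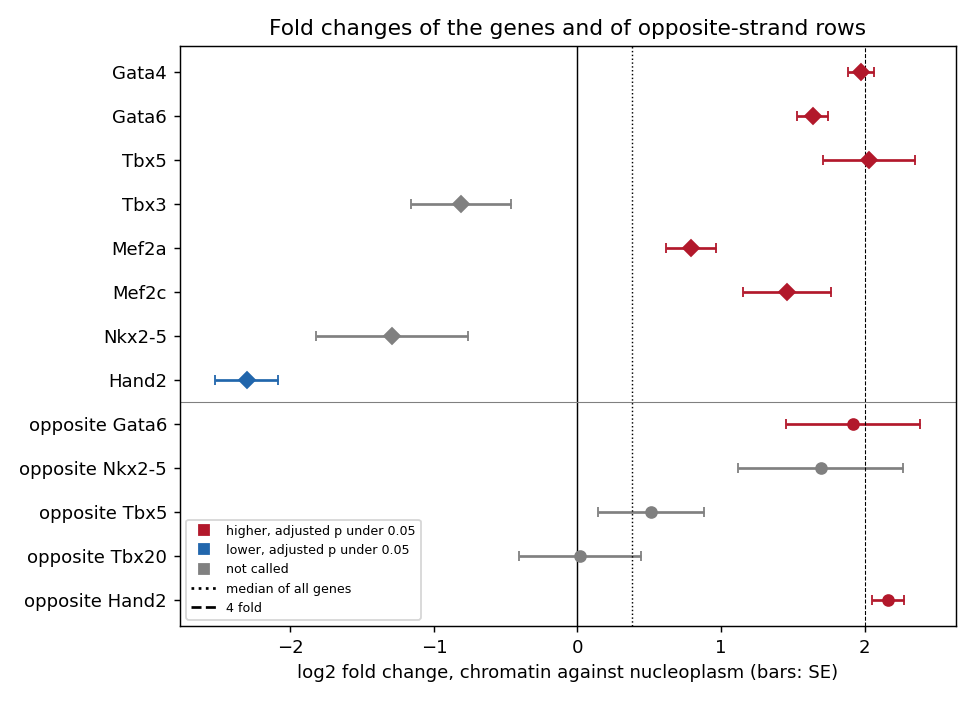
Log2 fold change of chromatin against nucleoplasm with its SE (limma, 3 libraries per fraction) for 8 genes (diamonds) and for opposite-strand loci (circles). The latter began within 5 kb of the 5′ end of a gene of the set and were above 0 in all libraries. Red and blue mark adjusted p under 0.05, grey no call, the dotted line the median of all genes (0.38) and the dashed line 4 fold, which *Tbx5* at 2.03 and the locus opposite *Hand2* at 2.16 pass.

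The scaling sets the size of these differences. When libraries were scaled to equal totals of ERCC standards, which were added to each fraction before extraction, the median of all genes moved from 0.38 to 0.83 and that of the 9 genes to 1.52. Under that scaling 4 of the 9 genes exceeded 4 fold, as 22.2% of all genes did. Quantile normalization moved the median of all genes to 0.0087 and that of the set to 0.36, and no gene of the set then exceeded 4 fold. Relative to all genes the set lay 0.41 higher on the log2 scale as deposited, 0.70 higher with ERCC scaling and 0.35 higher after quantile normalization.

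*Gata4* and *Gata6* encode zinc finger proteins that bind GATA motifs and act in part redundantly in the heart. *Gata4* (ENSMUSG00000021944, chr14:63198922-63271692, minus strand, mm10) gave 80244, 77622 and 82875 normalized counts in the chromatin libraries (replicates 1 to 3, as in all such lists below) and 20568, 19629 and 20977 in nucleoplasm. The fractions were far apart and replicates within a fraction differed by little. The mean was 3.94-fold higher in chromatin (80247 ± 2627 against 20391 ± 692, SD, n = 3 each), a log2 fold change of 1.98 ± 0.092 (SE, limma, adjusted p = 3.1e-05). The assembled locus used for *Gata4* was 127270 bp long and also covered *Fdft1* and *Neil2*, which lie downstream on the same strand, so its reads were those of 3 genes. In long reads the accession entries of *Gata4* summed to 31.3 and 16.2 TPM in the 2 libraries, those of *Fdft1* to 21.4 and 8.81, and those of *Neil2* to 4.18 and 0. The part of the neighbours in the short-read difference was not tested.

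*Gata6* (ENSMUSG00000005836, chr18:11052064-11085635, plus strand) had a locus of its own. Its values were 14408, 14355 and 14401 in chromatin and 4853, 5059 and 4020 in nucleoplasm. Again the fractions did not overlap, and the 3 chromatin libraries were nearly equal. The mean was 3.10-fold higher in chromatin (14388 ± 28.5 against 4644 ± 550, SD, n = 3 each) and the log2 fold change 1.64 ± 0.11 (SE, limma, adjusted p = 7.7e-05). Both GATA genes kept their call under all 17 alternatives, with log2 fold changes of 1.53 to 2.71 for *Gata4* and 1.44 to 2.37 for *Gata6*.

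The T-box genes went in different directions. *Tbx5* (ENSMUSG00000018263, chr5:119832668-119885219, plus strand) encodes an activator of atrial and conduction genes whose loss of function causes Holt-Oram syndrome. It gave 31391, 31912 and 16284 normalized counts in chromatin, and 7248, 7134 and 4608 in nucleoplasm. Replicate 3 was the lowest of each fraction, at 0.51 and 0.64 of the mean of the other two, yet every chromatin library exceeded every nucleoplasm library. The log2 fold change was 2.03 ± 0.32 (SE, limma, adjusted p = 0.0027), and 2.14 (adjusted p = 7.7e-04) without replicate 3 of both fractions. Over the alternatives it ran from 1.76 to 2.77 with adjusted p of 1.2e-10 to 0.017, and it fell below 4 fold with edgeR's TMM scaling of all genes (1.96), with quantile normalization (1.76), and without chromatin replicate 1 (1.88), chromatin replicate 2 (1.87) or nucleoplasm replicate 3 (1.82). The assembled locus began 36154 bp upstream of the GENCODE gene and had the same span as a RefSeq transcript of *Tbx5*.

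*Tbx3* (ENSMUSG00000018604, chr5:119670669-119684724, plus strand), the neighbour of *Tbx5*, gave 847, 855 and 389 in chromatin and 1353, 1267 and 892 in nucleoplasm. All chromatin libraries lay below all nucleoplasm libraries, but replicate 3 was low in both. The log2 fold change of -0.81 ± 0.35 (SE, limma, adjusted p = 0.11) did not pass the test. Without replicate 3 of both fractions, a setting chosen after seeing the data, it was -0.62 with adjusted p = 0.0032. With the replicate number as a block the -0.81 had adjusted p = 0.013, and over the 17 alternatives the adjusted p ran from 0.0032 to 0.84. Both without replicate 3 and with the block, 3 genes of the set were called lower (*Tbx3*, *Nkx2-5* and *Hand2*), as were 25.4% and 23.6% of all genes tested. Both fractions came from 3 independent cultures, but that a replicate number marks a culture is not stated.

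*Tbx20* (ENSMUSG00000031965, chr9:24718138-24774303, minus strand), which encodes a T-box factor needed for chamber growth, had no locus of its own by the rule. The assembled locus over it was 217998 bp long, included *Dpy19l2* and shared 0.26 of the joint span. As a value outside the rule, that locus gave 78276, 80087 and 61610 in chromatin and 53626, 52821 and 35447 in nucleoplasm, a log2 fold change of 0.65 ± 0.21 (SE, limma, adjusted p = 0.046). In long reads *Dpy19l2* accessions summed to 0.49 and 0.21 TPM and those of *Tbx20* to 30.4 and 30.1, and the part of *Dpy19l2* in the short-read value was not tested.

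**Figure D2:**
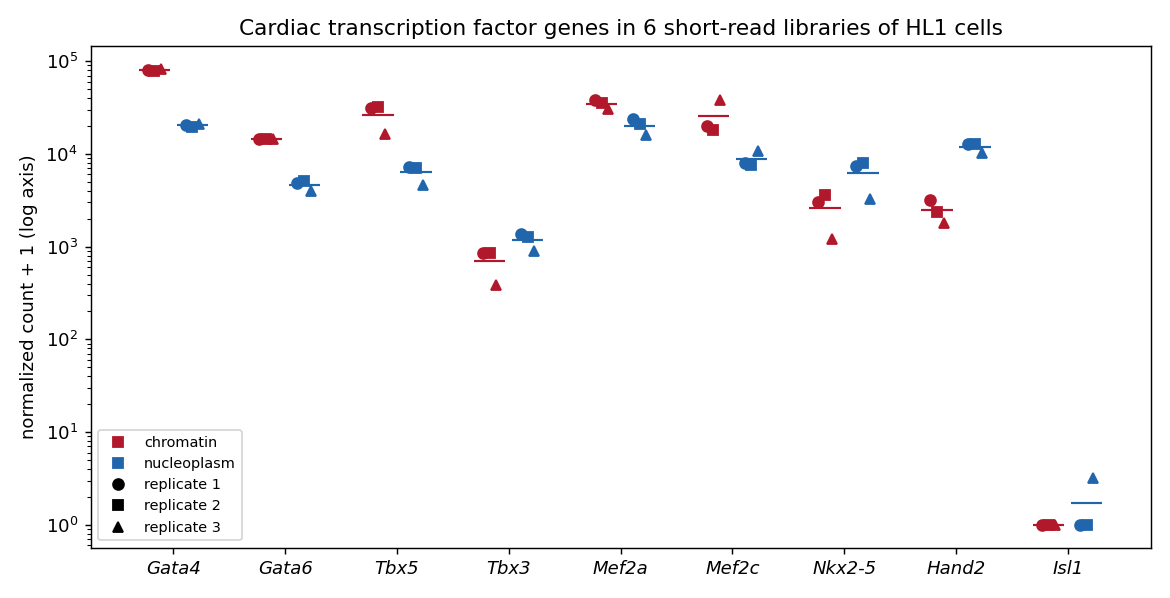
Normalized count plus 1 on a log axis for the 9 genes with a short-read value, with 1 point per library (circle, square and triangle for replicates 1, 2 and 3) and a line at the mean of each fraction. Chromatin (red) lies above nucleoplasm (blue) for *Gata4*, *Gata6*, *Tbx5*, *Mef2a* and *Mef2c* and below it for *Tbx3* and *Hand2*. Triangles are the lowest points for *Tbx5*, *Tbx3*, *Mef2a*, *Nkx2-5* and *Hand2* in both fractions, and the highest for *Gata4* and *Mef2c*.

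The MEF2 genes encode MADS-box factors that work with the GATA and NKX2-5 proteins, and both are long genes. *Mef2a* (ENSMUSG00000030557, chr7:67231163-67372858, minus strand) gave 38106, 35768 and 30184 in chromatin and 23534, 21115 and 16033 in nucleoplasm. The fractions did not overlap, but the difference was the smallest among the 5 genes called higher, at 1.71-fold. Its log2 fold change was 0.79 ± 0.18 (SE, limma, adjusted p = 0.011), and it was not called after quantile normalization (0.36, adjusted p = 0.15, the highest over its alternatives, the lowest being 6.6e-05). The locus ran 27122 bp past the annotated 3′ end and also covered the lincRNA gene *1700112J16Rik*, whose accessions were at 0 TPM in both long-read libraries.

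*Mef2c* (ENSMUSG00000005583, chr13:83504034-83667080, plus strand), the earlier acting of the pair in the developing heart, gave 20032, 18238 and 37937 in chromatin and 8073, 7681 and 10730 in nucleoplasm. Here replicate 3 was the highest of each fraction, 1.98 and 1.36 times the mean of the other two, whereas it was the lowest of each fraction for 5 of the other genes. The mean was 2.88-fold higher in chromatin and the log2 fold change 1.46 ± 0.31 (SE, limma, adjusted p = 0.0088), a call kept under all 17 alternatives with values from 1.11 to 2.19.

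*Hand2* (ENSMUSG00000038193, chr8:57320983-57324633, plus strand) encodes a basic helix-loop-helix factor of the right ventricle and outflow tract, and its gene is the shortest of the set at 3651 bp, with 64.4% of its span exonic. It gave 3179, 2366 and 1817 normalized counts in chromatin and 12838, 12655 and 10159 in nucleoplasm. Every nucleoplasm library exceeded every chromatin library. The mean was 4.84-fold lower in chromatin (2454 ± 685 against 11884 ± 1497, SD, n = 3 each) and the log2 fold change -2.30 ± 0.22 (SE, limma, adjusted p = 3.3e-04). This call held under all 17 alternatives (-2.51 to -1.57).

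*Nkx2-5* (ENSMUSG00000015579, chr17:26838664-26845009, minus strand) encodes the homeodomain factor at the centre of the network, and spans 6346 bp. It gave 3029, 3595 and 1194 in chromatin and 7381, 7882 and 3272 in nucleoplasm. Replicate 3 was at 0.36 and 0.43 of the mean of the other two, so that the nucleoplasm value of replicate 3 lay below the chromatin value of replicate 2 and the fractions overlapped. The log2 fold change of -1.29 ± 0.53 (SE, limma, adjusted p = 0.096) did not pass the test. Without replicate 3 of both fractions it was -1.21 with adjusted p = 0.0028. With the replicate number as a block the same difference had adjusted p = 5.8e-04. DESeq2 on the recovered counts also called it (-1.25, adjusted p = 0.016), and so did limma without nucleoplasm replicate 3 alone (-1.70, adjusted p = 0.045). Over the 17 alternatives the adjusted p ran from 5.8e-04 to 0.35.

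*Isl1* (ENSMUSG00000042258, chr13:116298281-116309689, minus strand) was at 0 in 5 libraries and had a recovered count of 3 in nucleoplasm replicate 3. A count of 0 allows up to 3 per library for counting error alone, so no fold change is given. The 2 other accession entries at this locus were at 0 in all 6 libraries.

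RNA from the opposite strand was looked for at the 5′ ends of the genes, because divergent and antisense RNA is a common product of active promoters. An opposite-strand entry with a 5′ end within 5 kb of the 5′ end of the gene was found for 7 of the 10 genes, 8 entries in all, and for none of *Gata4*, *Mef2a* and *Isl1*. Of these, 2 were called higher in chromatin, those at *Hand2* and *Gata6*, and none was called lower (limma, none of them lower at an unadjusted p under 0.05 either). The share called higher is near the 26.9% of all genes. The other 6 were not called, and 1 of them, at *Nkx2-5*, was near the threshold. With ERCC scaling 4 entries were called higher, as were 34.8% of all genes, and with the replicate number as a block 4 were, as were 28.8%.

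At *Hand2* the opposite-strand locus, which shared 0.50 of its joint span with the annotated antisense gene *Hand2os1* (also called *Upperhand*), was 22085 bp long and covered nearly all of *Hand2*. Its 5′ end lay 3499 bp inside *Hand2*, near the 3′ end of this 3651 bp gene, and met the 5 kb rule because the gene is short. The RefSeq start of *Hand2os1* lies elsewhere, at 57320859, just before the start of *Hand2*. The opposite-strand locus gave 98156, 93206 and 81511 normalized counts in chromatin and 20292, 19383 and 21054 in nucleoplasm. Every chromatin library thus exceeded every nucleoplasm library for this locus, while the order was the reverse for *Hand2*. The antisense counts are those of the whole 22085 bp, most of it outside *Hand2*, and those over *Hand2* alone were not separated. The log2 fold change of the antisense locus was 2.16 ± 0.11 (SE, limma, adjusted p = 3.9e-05). The count of the antisense locus was 30.9 to 44.9 times that of *Hand2* in the chromatin libraries and 1.53 to 2.07 times in the nucleoplasm libraries. The short reads were stranded, and these are ratios of counts that were not scaled for length.

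At *Nkx2-5* the opposite-strand locus began 49 bp inside the 5′ end of the gene and ran 58163 bp away from it, over the lincRNA gene *Gm20468* (Jaccard index 0.64). It gave 11097, 11301 and 4205 in chromatin and 3595, 3543 and 1223 in nucleoplasm. Replicate 3 was low here as for *Nkx2-5* itself, at 0.38 and 0.34 of the mean of the other two. The log2 fold change was 1.69 ± 0.57 (SE, limma, adjusted p = 0.053) and 1.65 (adjusted p = 7.7e-04) without replicate 3 of both fractions, with adjusted p from 1.7e-04 to 0.17 over the alternatives. It was also called without chromatin replicate 3 alone (2.16, adjusted p = 0.027) and with the replicate block (adjusted p = 1.7e-04). Its ratio to *Nkx2-5* was 3.14 to 3.66 in chromatin and 0.374 to 0.487 in nucleoplasm. Replicate 3 lay within the range of the others for this ratio in chromatin, and was the lowest in nucleoplasm.

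**Figure D3:**
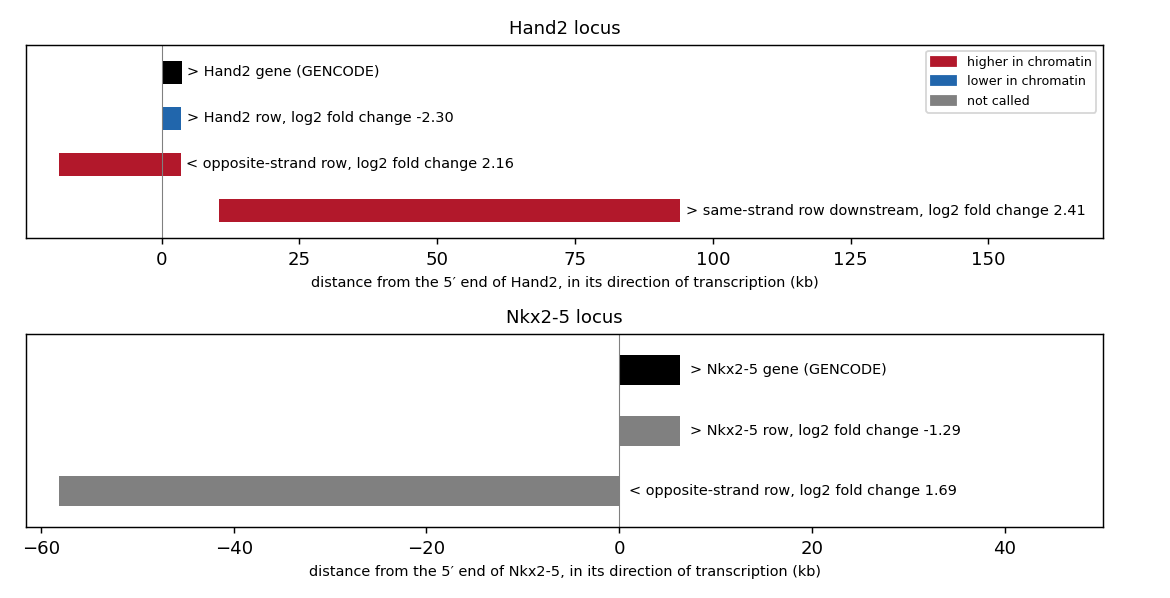
Position of the assembled loci at *Hand2* (top) and *Nkx2-5* (bottom) in kb from the 5′ end of the gene, positive in its direction of transcription, with arrows for the strand relative to the gene and log2 fold changes of chromatin against nucleoplasm. The *Hand2* locus (-2.30) lies almost wholly within the span of its opposite-strand locus (2.16), whereas the *Nkx2-5* locus (-1.29) and its opposite-strand locus (1.69) share only their 5′ ends, and neither of the latter was called (grey).

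At *Gata6* the opposite-strand locus overlapped the first bases of the gene (5′ end 503 bp inside it) and held 283, 279 and 151 normalized counts in chromatin and 83.9, 80.3 and 31.2 in nucleoplasm, a log2 fold change of 1.92 ± 0.47 (SE, limma, adjusted p = 0.016). The call was lost without chromatin replicate 1 (adjusted p = 0.067) or 2 (adjusted p = 0.061), the lowest over its alternatives being 8.3e-04. It amounted to 0.010 to 0.020 of the *Gata6* count in chromatin and 0.0078 to 0.017 in nucleoplasm. At *Tbx5* the locus began 640 bp upstream of the GENCODE gene, but wholly inside the span of the longer assembled locus read for *Tbx5*. It gave 1297, 1195 and 580 in chromatin and 772, 832 and 484 in nucleoplasm (0.51 ± 0.37, SE, limma, adjusted p = 0.32), and the fractions overlapped. It was called under 4 of 17 alternatives, among them without replicate 3 of both fractions (0.63, adjusted p = 0.0057) without chromatin replicate 3 alone (0.88, adjusted p = 0.048) and with the replicate block (adjusted p = 0.024). At *Tbx20* the accession XR_379194.2 of *Gm29824* lay between 39.4 and 107.9 in all libraries with no order by fraction, and the other accession of that gene was above 0 in 2 libraries. The locus at *Tbx3*, over *Tbx3os1*, had reads in chromatin replicate 1 alone (3.05 normalized counts), and that at *Mef2c* in chromatin replicate 3 alone (15.6).

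Paralogous genes were compared within each library by the log2 ratio of their counts, which removes the scaling of the library. The ratio of *Tbx5* to *Tbx3* was 5.21, 5.22 and 5.38 in chromatin and 2.42, 2.49 and 2.37 in nucleoplasm. It was thus far higher in chromatin in every library and varied little with replicate 3, by 2.84 ± 0.067 (difference on the log2 scale, SE). The ratio of *Gata4* to *Gata6* differed by 0.34 ± 0.13, without overlap of the fractions, and that of *Mef2a* to *Mef2c* by -0.67 ± 0.53, with overlap. The *Gata4* value in this ratio is that of the locus that also covers *Fdft1* and *Neil2*. With 3 libraries against 3 the exact two-sided permutation test cannot give a p below 0.1, which the T-box and GATA pairs reached (adjusted over 3 pairs p = 0.15) and the MEF2 pair did not (p = 0.3). The planned comparison of *Tbx5* with *Tbx20* was not possible because *Tbx20* had no value by the rule.

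The fold changes of the 8 genes with an assembled locus were broadly ordered by gene length. *Hand2* and *Nkx2-5*, in the shortest quartile of 10955 protein-coding genes by span (up to 10.9 kb), had log2 fold changes of -2.30 and -1.29, beside a median of -1.12 in that quartile. *Tbx3*, in the next quartile, had -0.81 beside -0.57. *Gata6* and *Tbx5*, in the quartile up to 60.0 kb, had 1.64 and 2.03 beside -0.18, and *Gata4*, *Mef2c* and *Mef2a*, in the longest, had 1.98, 1.46 and 0.79 beside 0.39. The short genes thus lay near or below the median for their length, and the longer ones above it, *Gata6*, *Tbx5*, *Gata4* and *Mef2c* above the upper quartile of their class. Spearman's rho of fold change with span was 0.62 over the 8 genes and 0.44 over the 10955, and with the exonic share of the span -0.88 over the 8. These are descriptions across genes of the same libraries, which are not independent replicates.

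**Figure D4:**
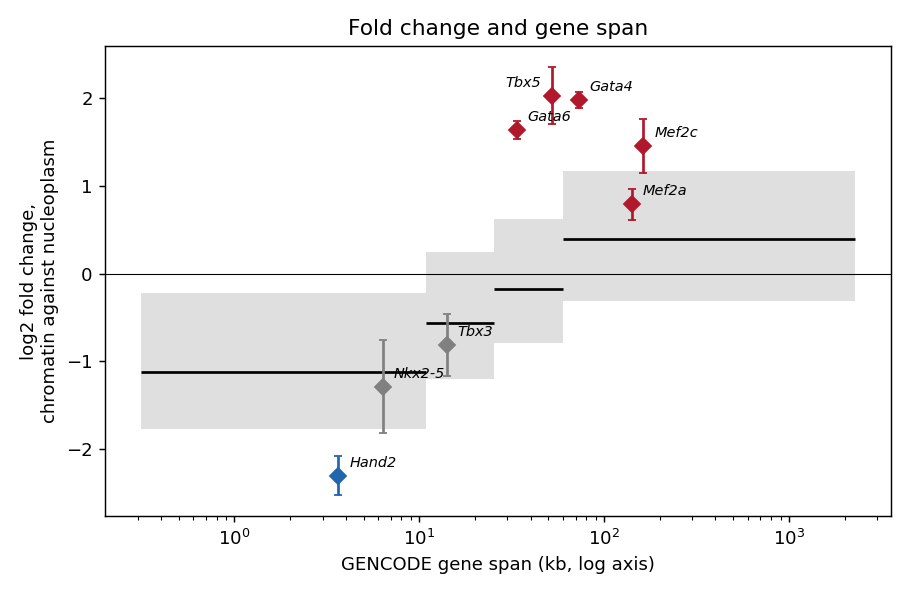
Log2 fold change of chromatin against nucleoplasm (with SE) against the GENCODE gene span in kb on a log axis for the 8 genes with an assembled locus. Black lines are medians and grey boxes the middle 50% of the 10955 protein-coding genes in each span quartile; *Hand2* lies below its box, *Nkx2-5*, *Tbx3* and *Mef2a* within theirs, and *Gata6*, *Tbx5*, *Gata4* and *Mef2c* above theirs.

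Long reads gave another view of the chromatin fraction, in TPM, which is scaled for the length of each transcript model. The sums below add all models over a gene, 23 above 0 on the same strand for *Mef2a* and 3 for *Nkx2-5*. Their order thus depends on how many models were assembled and is not free of gene length. In RefSeq accessions alone *Mef2a* held 54.8 and 42.9 TPM and *Nkx2-5* 65.0 and 26.5. Strand in this assembly is less certain, because the long-read libraries were not stranded. Summed over models that overlap the gene on its own strand, *Mef2a* was the highest, at 147 and 142 TPM in replicates 1 and 2. *Tbx20* followed with 73.5 and 57.4, *Tbx5* with 71.2 and 48.6, *Nkx2-5* with 70.1 and 28.0, and *Gata4* with 54.8 and 33.7. *Gata6* had 38.3 and 36.1 and *Hand2* 31.3 and 22.1. *Mef2c* had 13.9 and 11.5, *Tbx3* 2.41 and 5.88, and *Isl1* was listed at 0 in both. With 2 libraries the neighbours *Tbx20*, *Tbx5*, *Nkx2-5*, *Gata4* and *Gata6* each overlapped the next in this order. *Hand2* overlapped *Nkx2-5* but neither *Gata6* nor *Mef2c*, and *Mef2a*, *Mef2c*, *Tbx3* and *Isl1* overlapped no other gene. No test was run, since long reads were made from 1 fraction only.

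How the long-read signal was built differed between the genes. *Nkx2-5* was carried by its RefSeq accessions, with 65.0 of 70.1 TPM in replicate 1 and 26.5 of 28.0 in replicate 2. For *Mef2a* 4 accessions held 54.8 and 42.9 TPM, and 17 models that touch no annotated exon held 67.5 and 78.0. Each model adds a TPM scaled to its own length. Sums over unlike numbers of models, here and below, thus do not compare amounts of intronic and exonic RNA. At *Tbx5* such exon-free models on the same strand held 34.0 and 22.4 TPM against 13.8 and 8.35 in accessions, and at *Gata6* 15.0 and 7.97 against 23.2 and 28.1. At *Tbx20* they held 28.7 and 14.1 against 30.4 and 30.1. The *Hand2* accession was at 0 in both libraries, and its same-strand signal came from assembled models that began at the *Hand2* start and ran past its end, the main one 20488 bp long with 28.5 and 22.1 TPM. No model lay wholly inside *Hand2* or *Isl1*.

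Models on the opposite strand were present over 8 of the genes at more than 10 TPM in both libraries, being nearly absent at *Tbx3* (0.14 and 0.026) and absent at *Isl1*. *Hand2* had 127 and 24.8 TPM, the most in replicate 1 but less than *Gata4*, *Tbx5* and *Mef2a* in replicate 2. *Gata4* had 56.9 and 30.0, about as much as its own strand, although no opposite-strand short-read entry began near its 5′ end. The long-read libraries were not stranded, and the paper reports many long reads mapped to the wrong strand. These opposite-strand values therefore cannot tell antisense RNA from RNA of the gene itself. *Tbx20* had 35.5 and 12.8, *Tbx5* 23.0 and 28.8, *Mef2a* 22.7 and 25.2, *Gata6* 17.7 and 15.6, *Mef2c* 17.2 and 13.4, and *Nkx2-5* 13.2 and 12.9. Counted only where the model lies inside the gene, the 10 genes summed to 350 TPM over both strands (mean of the libraries), 258 of it on the same strand, and overlapping models summed to 682.

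**Figure D5:**
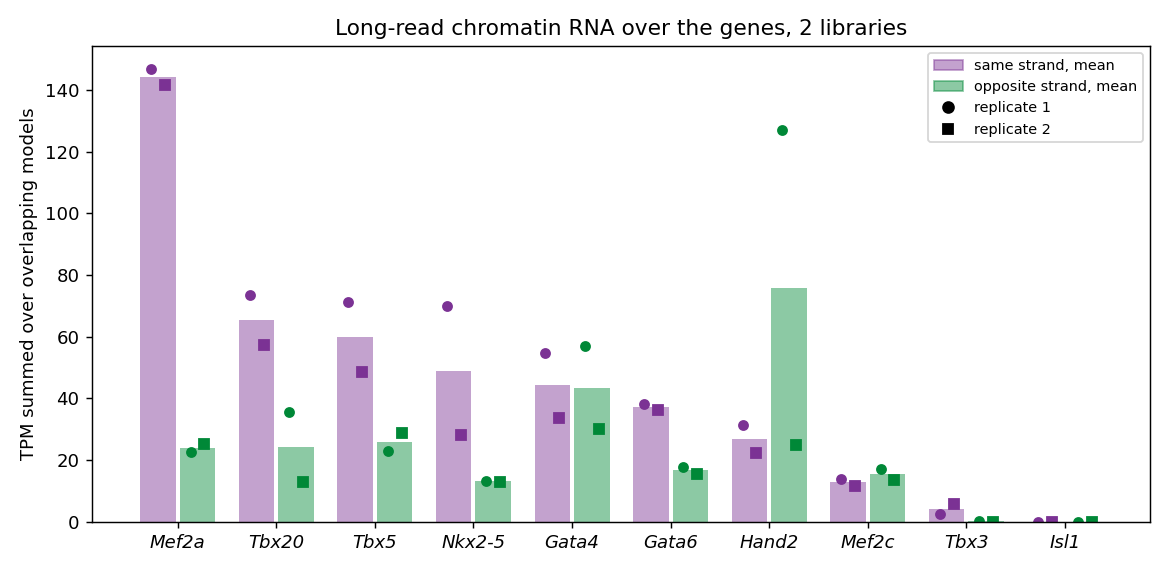
TPM of long-read models overlapping each gene by at least 1 bp, on the same strand (purple) and the opposite strand (green), as bars at the mean of 2 chromatin libraries with points for replicate 1 (circle) and replicate 2 (square). *Mef2a* has the highest same-strand level (147 and 142), *Hand2* the highest opposite-strand level in replicate 1 but not in replicate 2 (127 and 24.8), and *Isl1* is at 0. Strands are those assigned in the assembly of unstranded reads.

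Further cardiac transcription factors, cofactors and targets show what the comparison gave around the core set. Of 27 further cardiac transcription factor genes, 21 were tested, 2 were higher, 5 were lower and 14 were not called, with a median log2 fold change of -0.07. Over all genes 26.9% were higher and 20.9% lower, with a median of 0.38. Over genes with a mean of at least 10 normalized counts, 33.1% were higher and 32% lower, with a median of 0.049. Protein-coding genes had a median of -1.12 with 65.9% lower in the shortest span quartile. In the longest it was 0.39 with 18.7% lower. This list and those of cofactors and targets were not matched to any of these backgrounds. The higher ones were both TALE homeobox genes, *Meis2* (3.30 ± 0.17, SE, limma, adjusted p = 4.0e-05) and *Meis1* (1.71 ± 0.12, adjusted p = 9.2e-05). *Hey1*, a Notch-induced repressor (-1.19, but -0.46 and not called with ERCC scaling), and the MEF2 family member *Mef2b* (-1.02) were lower, as were *Nr2f1*, *Nfatc3* and *Foxc1*, named after their values were seen. *Tead1* had 0.29 (-0.11 after quantile normalization) and *Srf* -0.06, and neither was called in the main fit. With ERCC scaling *Srf* was called higher (0.68, limma, adjusted p = 0.038). *Tead1* was called higher under 4 of 17 alternatives, ERCC scaling among them (1.02, limma, adjusted p = 0.014).

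Of 15 cofactor genes 14 were tested, 6 were higher, 3 were lower and 5 were not called, beside 26.9% higher and 20.9% lower of all genes. Their median of 0.37 was close to the 0.38 of all genes and above the 0.049 of genes with a mean of at least 10. *Zfpm2*, which encodes the FOG2 partner of GATA4, was 2.88 ± 0.20 higher on the log2 scale (SE, limma, adjusted p = 9.2e-05), whereas *Zfpm1*, for FOG1, was lower (-1.10, adjusted p = 0.0017, but -0.36, adjusted p = 0.20, with ERCC scaling). *Hdac4*, for a deacetylase that represses MEF2 proteins, was 2.44 higher and *Myocd*, for the SRF coactivator myocardin, 2.01 higher. *Crebbp* was 0.86 higher and *Smarcd3*, for a cardiac subunit of the BAF remodeller, was lower (-0.995, adjusted p = 0.045). *Smarca4* had 0.06 and was not called in the main fit. It was called lower after quantile normalization (-0.35, limma, adjusted p = 0.015) and higher with ERCC scaling (0.79, adjusted p = 0.020).

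Of 20 target genes 17 were tested, 3 were higher, 4 were lower and 10 were not called, beside 26.9% higher and 20.9% lower of all genes. Their median was -0.63, that of all genes 0.38 and that of genes with a mean of at least 10 normalized counts 0.049. It lay within the range of protein-coding medians by span quartile, -1.12 to 0.39, so it does not set the targets apart from coding genes. *Ryr2*, for the calcium release channel, was 2.83 higher and *Cacna1c*, for the L-type calcium channel, 2.54 higher, with *Ankrd1* the other higher gene, named after its values were seen. *Gja1*, for connexin 43, was lower (-2.17), as were *Myl7*, for the atrial light chain (-2.10), *Tnni3*, named after its values were seen, and *Pln*, for phospholamban (-0.63, adjusted p = 0.048, but 0.10 with ERCC scaling). *Atp2a2*, for the calcium pump that phospholamban restrains, had 0.28 and was not called.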

How the data were processed

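Per the labels and the methods of the study, short reads were aligned to mm10 with ERCC sequences by HISAT2 2.1.0, assembled and re-estimated with StringTie and counted per gene by strand. The authors deposited these gene counts after division by DESeq2 size factors, a signal that is not scaled for gene length. For long reads, aligned with minimap2, the authors deposited TPM estimated by StringTie on a merged, unstranded assembly. The depth of the long-read libraries is not known from these values. The paper gives unequal read numbers for the 2 libraries, and a stricter basecalling quality limit for replicate 2 than for replicate 1. 100% of the short-read values were whole multiples of 1 step per library, within a relative tolerance of 1e-06, which gave the counts for edgeR and DESeq2. The study obtained its gene counts from re-estimated StringTie abundances, so they need not equal numbers of reads. The step was 1.01 in nucleoplasm replicate 1, close to that of undivided counts. No column was left unmapped.

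Genes above 0 in at least 1 library (35818, after accession entries of a listed gene were summed) were tested with limma 3.58.1 (R 4.3.3) on log2(normalized count + 1) with a mean-variance trend and Benjamini-Hochberg adjustment over all of them, so that fold changes of low genes are understated. Alternatives were pseudocounts of 0.1 and 10, a mean of at least 10, no trend, edgeR 4.0.16 with TMM, DESeq2 1.42.0, quantile and ERCC scaling, a replicate block, each library left out, and a Jaccard index of 0.8. Gene spans came from GENCODE M21 and accession names from RefSeq. All 10 genes, the opposite-strand entries and the fractionation controls are named, and in each further list the 4 genes with the highest mean and the 2 largest and 2 smallest called fold changes among genes with a mean of at least 100. The members and lists were chosen with earlier results of these data known. Permutation tests used scipy 1.17.1, and the functions were tested on simulated counts. The 3 libraries per fraction limit the precision.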

Additional observations from a re-analysis of the deposited data

How the results depend on the processing

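*Gata4*, *Gata6*, *Tbx5* and *Mef2c* stayed higher and *Hand2* lower under all 17 alternatives, and *Mef2a* under all but quantile normalization. The count of genes called higher was 5 whichever library was left out. It fell to 3 with a Jaccard index of 0.8, which leaves out *Gata4* and *Tbx5*, and then no gene exceeded 4 fold and the median of the remaining 7 genes was -0.56. The count called lower was 2 with DESeq2 (21.5% of all genes lower) and 1 to 2 with each library left out. It was 3 without replicate 3 of both fractions, a setting added after seeing the data. The count above 4 fold was 4 with ERCC scaling, 0 with edgeR's TMM and 0 after quantile normalization, and 0 to 1 with each library left out. The median fold change was 1.52 with ERCC scaling, 1.11 with edgeR after filterByExpr, 0.67 with edgeR alone, 1.12 with the minimum mean of 10, 0.36 after quantile normalization and 1.00 without replicate 3 of both fractions, and ran from 0.72 to 1.08 with each library left out. Opposite-strand entries called higher numbered 4 with ERCC scaling (34.8% of all genes) and 4 without replicate 3 of both fractions (31.2%), 1 within 1 kb, and 1 to 4 with each library left out. Long-read TPM inside the genes was 350, and 682 for overlapping models and 258 for the same strand only. The causes of these changes were not tested, except where fewer genes or models entered by construction.

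Signs changed for 6 single genes, none of them a member. For *Tbx20*'s opposite-strand accession XR_379194.2 (0.018) the value was -0.063 with DESeq2, -0.11 with edgeR after filterByExpr, -0.17 with edgeR alone, -0.58 after quantile normalization and -0.32 to 0.39 with each library left out. For XR_870586.1 (-0.15) it was 0.15 with ERCC scaling and -1.75 to 1.60 with each library left out. *Tead1* (0.29) became -0.11 after quantile normalization, *Smarca4* (0.06) became -0.052 with edgeR and -0.35 after quantile normalization, *Pln* (-0.63) became 0.10 with ERCC scaling, and *Srf* (-0.06) became 0.68 with ERCC scaling and ran from -0.15 to 0.019 with each library left out. The call of *Pln* was lost under 9 of 17 alternatives and that of *Smarcd3* under 8, leaving out any library but nucleoplasm replicate 3 among them, and that of *Mef2b* under 3, among them without nucleoplasm replicate 1 or 2. *Hey1* and *Zfpm1* lost theirs with ERCC scaling alone.

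Chromatin and nucleoplasm libraries share replicate numbers. Deviations from the group means correlated by 0.098, 0.088 and 0.22 between same-numbered libraries and by -0.14 to 0.061 between others. Every library correlated best with its own number. Both fractions came from 3 cultures, but which libraries share a culture is not stated, so the fit without the block was kept as the main one. With the replicate number as a block 3 genes were called lower (23.6% of all genes), *Nkx2-5* with adjusted p = 5.8e-04 and *Tbx3* with adjusted p = 0.013 besides *Hand2*, and 4 opposite-strand entries were called higher (28.8% of all genes).

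Depth does not limit the 8 assembled genes, but at *Isl1* a count of 3 per library or fewer could not be told from 0. The assembled loci of *Gata4*, *Mef2a* and *Tbx20* hold neighbouring genes, and counts over introns and exons were not separated, so spliced and unspliced RNA cannot be told apart in these values.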

Other observations

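Downstream of *Hand2*, on the same strand, a further assembled locus began 6705 bp past the end of the gene and ran for 83765 bp. It gave 37581, 35476 and 35075 normalized counts in chromatin and 6855, 6472 and 6997 in nucleoplasm, a log2 fold change of 2.41 ± 0.081 (SE, limma, adjusted p = 2.3e-05), the direction opposite to that of *Hand2* (-2.30). The locus lies outside the rule for the members and was chosen after its values were seen. In long reads the main same-strand model over *Hand2* began at the *Hand2* start and ended at 57341470 on chr8, inside this downstream locus (57331338 to 57415102).

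Among pacemaker markers, *Cacna1d*, for a calcium channel of sinoatrial cells, gave 33427, 33135 and 7351 in chromatin and 4519, 4065 and 1161 in nucleoplasm (2.86 ± 0.79, SE, limma, adjusted p = 0.026). Replicate 3 was low in both fractions, as for *Nkx2-5* and *Tbx5*. *Tbx18*, another marker of that list, was the reverse, with 2220, 2035 and 7481 in chromatin and 1026, 977 and 2914 in nucleoplasm (1.18 ± 0.65, adjusted p = 0.20, not called). *Hcn4* was lowest in replicate 3 (665, 795 and 280 in chromatin and 779, 744 and 455 in nucleoplasm). *Shox2* varied little (316, 329 and 328 in chromatin and 297, 349 and 380 in nucleoplasm). The correlation of these genes over libraries was not tested.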
